A study of Mus musculus with 4 samples.

Results

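H19, Igf2, Igf2r, Kcnq1ot1, Phlda2, Slc22a18 and Ascl2 are imprinted genes of 3 chromosomal domains of the mouse, chosen by name from the 18327 genes that the array's accessions could be matched to, with all of their probes. Of the 7 genes, 6 were matched, by 14 probes. H19 was not analysed here, because no accession on the array matched those listed for it. Of the 6, 5 had a signal well above background in both pools of a genotype and were tested, by 10 probes. Their levels were measured in HP1γ-/- and wild-type pools, and the paternally expressed Igf2 and Kcnq1ot1 were set beside the maternally expressed Igf2r, Phlda2, Slc22a18 and Ascl2.

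An imprinted gene is transcribed mainly from the copy inherited from 1 parent, under DNA methylation set in the germ line of either the mother or the father. Igf2 encodes a fetal growth factor, H19 the non-coding RNA beside it, and Igf2r the receptor that binds IGF2 and mannose 6-phosphate and delivers IGF2 to lysosomes. Kcnq1ot1 is a long non-coding RNA made from the paternal copy that silences neighbouring genes of the Kcnq1 domain in cis. Phlda2 and Ascl2, genes that act in placental growth and trophoblast, and the transporter gene Slc22a18 lie in that domain and are transcribed from the maternal copy. Primordial germ cells, from which eggs and sperm descend, erase the parental imprints around the time they settle in the genital ridge. An expression array reads both copies together, so the parental origin of a transcript was not measured.

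The mutant pools came from HP1γ-/- embryos carrying the Blimp1-mVenus transgene, and the control pools from wild-type embryos with the same transgene. Cbx3 encodes HP1γ, a chromatin reader of methylated histone H3, and its mutant allele was made by a modified gene trap. Cells positive for mVenus, which marks activity of Blimp1 (Prdm1), were sorted from genital ridges on embryonic day 11.5. RNA of 5 or 6 embryos, with 500 to 3500 cells each, was combined per pool. There were 2 independent pools per genotype and 1 one-colour Agilent array per pool, all on 1 slide. With 4 arrays in all, precision is limited by their number.

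A level here is the log2 signal of a probe minus the 75th percentile of its array, which was 125 and 291 intensity units on the HP1γ-/- arrays of replicates 1 and 2 and 188 and 219 on the wild-type arrays. Well above background were 53.8% and 63.3% of spots on the HP1γ-/- arrays, and 53.3% and 56.7% on the wild-type arrays. Cbx3, by its brightest probe, had levels of -1.24 and -2.78 in HP1γ-/- pools, against 5.89 and 5.72 in wild-type pools. The labelled cell type was checked with 10 germ cell genes, of which 6 were tested (Dppa3, Pou5f1, Ddx4, Dazl, Sox2 and Tfap2c). Their median level was 0.87 in HP1γ-/- replicate 1 and -6.71 in HP1γ-/- replicate 2, against -0.57 and -2.52 in the wild-type pools. None of these 6 genes was well above background in HP1γ-/- replicate 2, although the label of that pool is primordial germ cells. A further gene, Nanos3, had a probe that was not tested, and Nanog, Prdm14 and Kit had no matched probe. The median of 9 stromal genes was 0.31 and 1.51 in the HP1γ-/- pools, against 0.38 and -0.50 in wild type, that of 9 endothelial genes 2.19 in each HP1γ-/- pool, against 2.60 and 2.89, and that of 8 leukocyte genes 3.67 and 3.72, against 3.59 and 3.89. In bulk pools, fewer cells of a type and less RNA per cell cannot be told apart.

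No imprinted gene tested here passed the threshold between genotypes, on either parental side. Cbx3, the disrupted gene, missed it too, at a log2 difference of -7.82 without overlap (limma adjusted p = 0.099). A gene that misses the threshold is therefore not shown to be unchanged. Of the 5 genes by their brightest probes, 3 had a higher and 2 a lower mean in the HP1γ-/- pools, and the log2 differences ran from -0.20 to 0.59 with a median of 0.17, against -0.06 over all 22440 tested probes. The adjusted p lay between 0.67 and 0.98 (limma, Benjamini-Hochberg over all tested probes), and limma called 0.00891% of all probes. At an unadjusted p under 0.05 there were 0 of these 5 genes, against 7.51% of all probes. Differences of at least 2-fold without overlap between genotypes were found in 0 of the 5 genes, against 4.99% of all probes (3.92% higher and 1.07% lower in HP1γ-/- pools). The 2 paternally expressed genes differed by -0.20 (Igf2) and 0.17 (Kcnq1ot1), and the 3 maternally expressed ones by -0.12 (Igf2r), 0.59 (Phlda2) and 0.57 (Slc22a18), so both groups held differences of either sign. Igf2, Kcnq1ot1 and Igf2r were lowest in HP1γ-/- replicate 1 and highest in HP1γ-/- replicate 2, an order seen in 13.5% of all probes. Phlda2 had the opposite order, seen in 18.7% of all probes.

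**Figure D1:**
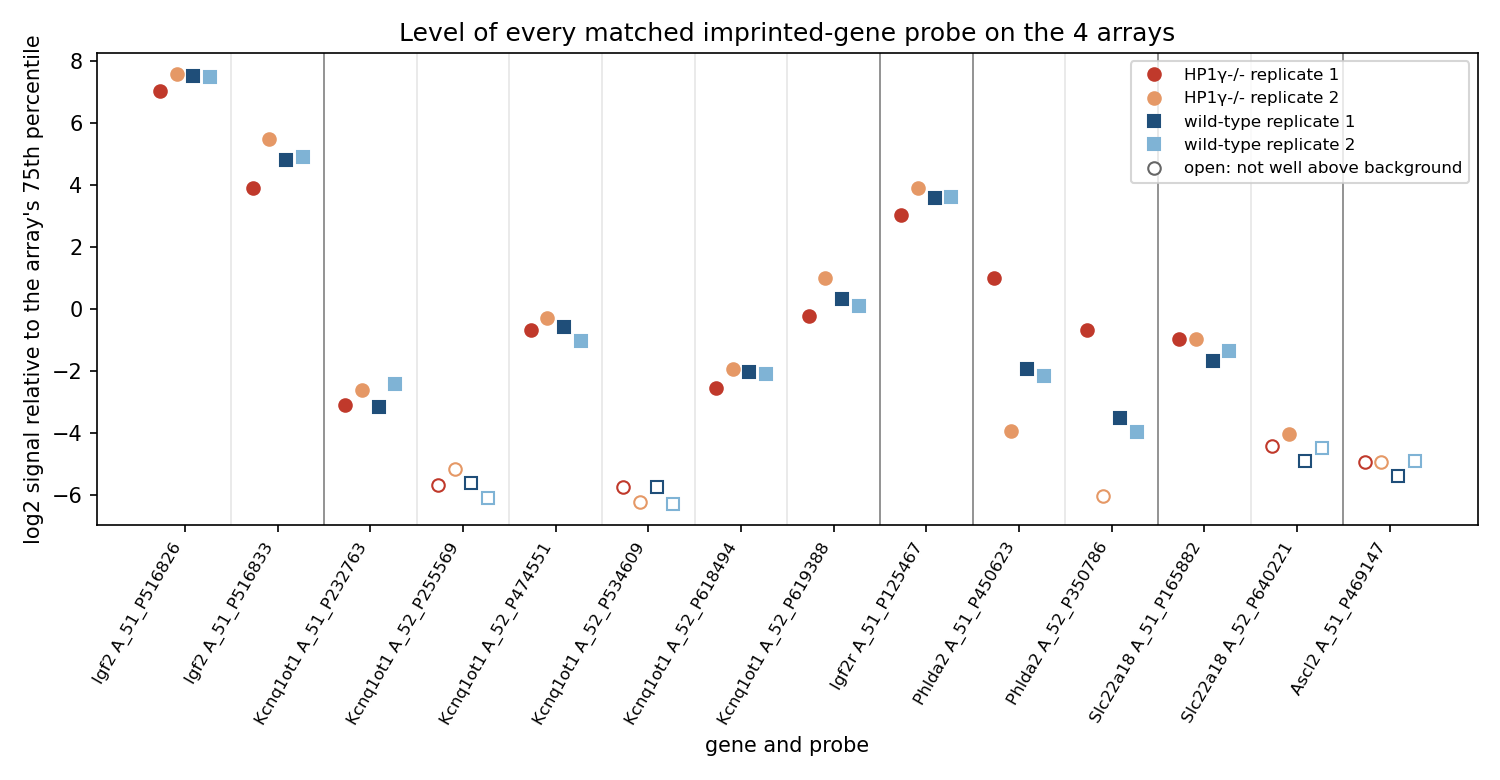
Level of each of the 14 matched probes on the 4 arrays, as log2 signal relative to the array's 75th percentile on the vertical axis; circles are HP1γ-/- pools, squares are wild-type pools, and open symbols mark signals not well above background. Phlda2 runs from 0.99 in HP1γ-/- replicate 1 to -3.92 in HP1γ-/- replicate 2 by its brighter probe. The tested Slc22a18 probe lies higher in the 2 HP1γ-/- pools than in the 2 wild-type pools. The dimmer Slc22a18 probe is well above background in HP1γ-/- replicate 2 alone.

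Promoter sequence is shown for the 5 tested genes, so that the genes with opposite order across the pools can be read beside each other. The windows are from RefSeq on GRCm38.p6 and run from 250 bases before to 50 bases after an annotated start, which gave 9 windows for 6 of the 7 genes, 4 of them for Igf2. They are printed on the transcribed strand, for Igf2 the most downstream of its 4 starts, and capitals mark CCAAT (or ATTGG, its other strand) and GGGCGG (or CCGCCC).
Igf2, chr7:142657447-142657746, minus strand: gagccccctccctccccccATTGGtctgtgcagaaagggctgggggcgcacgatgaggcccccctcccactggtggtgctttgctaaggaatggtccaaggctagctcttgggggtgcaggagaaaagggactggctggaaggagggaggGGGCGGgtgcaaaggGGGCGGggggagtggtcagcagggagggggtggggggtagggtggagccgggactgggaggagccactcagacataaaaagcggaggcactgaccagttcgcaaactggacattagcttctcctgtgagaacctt
Kcnq1ot1, chr7:143296498-143296797, minus strand: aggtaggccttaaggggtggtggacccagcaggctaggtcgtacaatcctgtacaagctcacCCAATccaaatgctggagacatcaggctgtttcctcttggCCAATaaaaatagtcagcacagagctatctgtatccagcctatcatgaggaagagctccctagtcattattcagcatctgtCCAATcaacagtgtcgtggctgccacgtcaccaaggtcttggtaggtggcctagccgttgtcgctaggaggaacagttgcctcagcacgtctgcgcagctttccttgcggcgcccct
Igf2r, chr17:12769657-12769956, minus strand: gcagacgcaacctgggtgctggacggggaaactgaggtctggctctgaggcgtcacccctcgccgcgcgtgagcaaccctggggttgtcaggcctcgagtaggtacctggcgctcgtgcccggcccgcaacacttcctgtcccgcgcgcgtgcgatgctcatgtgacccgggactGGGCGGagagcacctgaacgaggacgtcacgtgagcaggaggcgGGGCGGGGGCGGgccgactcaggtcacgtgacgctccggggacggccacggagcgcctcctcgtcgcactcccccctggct
Phlda2, chr7:143502475-143502774, minus strand: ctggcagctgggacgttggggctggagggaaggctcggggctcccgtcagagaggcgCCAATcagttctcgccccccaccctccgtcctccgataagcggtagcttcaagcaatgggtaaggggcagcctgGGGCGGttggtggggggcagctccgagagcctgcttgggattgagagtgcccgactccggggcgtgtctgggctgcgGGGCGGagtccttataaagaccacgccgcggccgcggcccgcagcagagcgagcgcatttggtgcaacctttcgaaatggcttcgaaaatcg
Slc22a18, chr7:143473539-143473838, plus strand: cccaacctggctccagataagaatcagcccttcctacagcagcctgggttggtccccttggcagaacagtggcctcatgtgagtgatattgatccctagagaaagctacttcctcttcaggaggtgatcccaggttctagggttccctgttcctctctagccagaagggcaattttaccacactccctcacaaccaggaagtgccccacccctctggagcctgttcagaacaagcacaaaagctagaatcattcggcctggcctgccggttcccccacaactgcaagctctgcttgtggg
CCAAT occurred 3 times in the Kcnq1ot1 window, which lies in the element that controls imprinting of the Kcnq1 domain. It also occurred 3 times in the window of the untested Ascl2, not printed here, and 3 or more times in 3.37% of all 32851 windows. It occurred once on either strand in the printed windows of Igf2 and Phlda2 and was not found in those of Igf2r and Slc22a18, while 37.4% of all windows held at least 1. GGGCGG was found 2 times for Igf2, 3 times for Igf2r and 2 times for Phlda2, and 35.7% of all windows held it. No capital runs overlapped each other. The dinucleotide CG, the site of DNA methylation, occurred 34 times in the Igf2r window and 26 times in that of Phlda2, counts reached by 7.73% and 16.9% of all windows. The printed windows of Kcnq1ot1, Igf2 and Slc22a18 held 9, 7 and 2, and the median of all windows was 7. The Igf2 windows not printed held 24, 14 and 2, so its CG count depends on the start chosen. Igf2r and Phlda2, the 2 printed windows with the most CG, had opposite orders across the pools.

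Igf2, the paternally expressed growth factor gene, is measured by 2 probes. By probe A_51_P516826, printed in 10 spots per array, it had levels of 7.02 and 7.56 in HP1γ-/- replicates 1 and 2, against 7.52 and 7.47 in wild-type replicates 1 and 2. The pool with the lowest level was HP1γ-/- replicate 1, and the genotypes overlapped. The gap of 0.53 between the HP1γ-/- pools was exceeded by 39.5% of all tested probes, and the replicate spots of 1 array varied by an SD of 0.04 to 0.05. The difference between genotypes was -0.20 (SE 0.26, 95% interval -0.90 to 0.49, limma adjusted p = 0.92). Probe A_51_P516833 had 3.90 and 5.47 in the HP1γ-/- pools, against 4.80 and 4.89 in wild type, with the same lowest and highest pools and a gap of 1.57 between HP1γ-/- pools. The probes therefore differ in the size of that gap, 1.45-fold by the first and 2.98-fold by the second. The gap by the second was exceeded by 4.85% of all tested probes. In HP1γ-/- replicate 2 the first probe read 53999 intensity units and the second 12898. Why the 2 gaps differ was not tested. Without HP1γ-/- replicate 1 the difference by the brighter probe was 0.063, and without HP1γ-/- replicate 2 it was -0.47, so its sign rests on which HP1γ-/- pool is kept.

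Igf2r, the maternally expressed receptor gene that removes IGF2, has 1 probe (A_51_P125467). Its levels were 3.02 and 3.91 in the HP1γ-/- pools, against 3.58 and 3.60 in wild type. The wild-type pools lay between the HP1γ-/- pools, as for Igf2, although the 2 genes are transcribed from opposite parental copies. The difference was -0.12 with SE 0.35 (limma adjusted p = 0.98, 95% interval -1.07 to 0.82). It was 0.32 without HP1γ-/- replicate 1 and -0.57 without HP1γ-/- replicate 2. The gap of 0.89 between the HP1γ-/- pools was exceeded by 18.2% of all tested probes, while the gap between the wild-type pools, 0.02 in size, was exceeded by 92.7% of them. Airn, the paternally expressed antisense RNA of this domain that silences Igf2r on the paternal copy and is named here after its values were seen, had -2.69 and -1.57 in the HP1γ-/- pools, against -2.18 and -1.82 in wild type. It too was lowest in HP1γ-/- replicate 1 and highest in HP1γ-/- replicate 2, and it differed by -0.13 between genotypes (limma adjusted p = 0.98).

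Kcnq1ot1, the silencing RNA of the Kcnq1 domain, has 6 probes, of which 4 were well above background on all 4 arrays. The brightest, A_52_P619388, had levels of -0.22 and 1.00 in the HP1γ-/- pools, against 0.33 and 0.11 in wild type, a difference of 0.17 with SE 0.46 (limma adjusted p = 0.98, 95% interval -1.05 to 1.39). HP1γ-/- replicate 2 was the highest and HP1γ-/- replicate 1 the lowest. Probe A_52_P618494 had -2.53 and -1.92, against -2.04 and -2.09 in wild type, again with the wild-type pools in between. Probe A_52_P474551 had -0.68 and -0.28, against -0.58 and -1.01, and probe A_51_P232763 had -3.09 and -2.61, against -3.16 and -2.43, so on these 2 probes the lowest array was a wild-type one. HP1γ-/- replicate 2 exceeded HP1γ-/- replicate 1 on each of the 4 probes, but between genotypes 2 probes had a positive difference (0.17 and 0.32) and 2 a negative one (-0.16 and -0.06). The remaining probes, A_52_P255569 and A_52_P534609, were not well above background on any array. Without HP1γ-/- replicate 1 the difference by the brightest probe was 0.78, and without HP1γ-/- replicate 2 it was -0.44.

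Phlda2, a maternally expressed gene that restrains placental growth, differed most among the pools of the 5 tested genes. By probe A_51_P450623 it had levels of 0.99 in HP1γ-/- replicate 1 and -3.92 in HP1γ-/- replicate 2, against -1.94 and -2.17 in the wild-type pools. Both wild-type pools lay between the HP1γ-/- pools, which stood 30.0-fold apart, and 0.241% of all tested probes had a wider gap between them. Probe A_52_P350786 had -0.67 and -6.03, against -3.50 and -3.97, and it was not well above background in HP1γ-/- replicate 2. The difference between genotypes by the brighter probe was 0.59 with SE 1.66 and a 95% interval from -3.85 to 5.03 (limma adjusted p = 0.98), so the 4 arrays leave the direction undetermined. Without HP1γ-/- replicate 1 it was -1.86 (limma adjusted p = 0.12), and without HP1γ-/- replicate 2 it was 3.04 (limma adjusted p = 0.073). Each of these fits has 1 HP1γ-/- pool, which is assumed to vary like the wild-type pools, so its p leaves out the spread between the HP1γ-/- pools. Between replicates the 6 germ cell markers had the same direction. In HP1γ-/- replicate 1, 6 of 6 were higher than in HP1γ-/- replicate 2, against 12244 of all 22440 tested probes. In wild-type replicate 1, 6 of 6 were higher than in wild-type replicate 2, as both Phlda2 probes were, against 10841 of all tested probes. That wild-type order also held for 9 of 9 stromal and 3 of 3 gonadal soma markers. It held for 2 of 9 endothelial and 0 of 8 leukocyte markers. Dazl, unlike Phlda2, was lower in HP1γ-/- replicate 1 (-2.15) than in wild-type replicate 1 (-0.45). The part of these cell types in the result was not tested.

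Slc22a18, which encodes a membrane transporter of the organic cation transporter family and lies next to Phlda2, was the 1 tested gene of the 5 whose genotypes did not overlap, a pattern met by 38.2% of all probes and in the higher direction by 15.1%. Probe A_51_P165882 had levels of -0.96 in each HP1γ-/- pool, against -1.68 and -1.37 in wild type. The HP1γ-/- pools were thus closer to each other than in 98.7% of all tested probes, while Phlda2 beside it differed 30.0-fold between the same pools. The means were -0.96 ± 0.01 in HP1γ-/- pools and -1.53 ± 0.22 in wild-type pools (SD, n = 2 each), a 1.48-fold difference that missed the threshold (log2 difference 0.57, SE 0.22, limma adjusted p = 0.67, unadjusted p = 0.053). Its 95% interval ran from -0.01 to 1.14. Probe A_52_P640221 had -4.42 and -4.02 in the HP1γ-/- pools, against -4.89 and -4.48, in the same direction, but it was well above background in HP1γ-/- replicate 2 alone and was not tested. Some markers of other genital ridge cells lay higher in both HP1γ-/- pools without passing the test. The 4 tested of 6 genes of mesonephric epithelium had median levels of 2.02 and -0.30 in HP1γ-/- pools, against -2.001 and -2.57 in wild type. Genotypes did not overlap for 2 of them (Krt8 and Krt18) and overlapped for Cdh16 and Epcam. Pax2 and Pax8 of that list were not well above background in both pools of either genotype and were not tested. The 3 tested of 8 genes of gonadal soma had 0.23 and 1.51, against -0.50 and -1.46. Gata4, Nr5a1, Lhx9, Emx2 and Sry of that list were not tested, for the same reason. Of the 3 tested genes, Wnt4 was well above background in the HP1γ-/- pools alone, so it entered through the genotype where it is high. Wt1 overlapped between genotypes. Their part in the result was not tested. With scaling to spiked-in control RNA, which moved the median difference of all probes to -0.61, the difference of Slc22a18 by the tested probe was 0.02.

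Ascl2, a trophoblast transcription factor gene expressed from the maternal copy, was not well above background on any of the 4 arrays. Its signals of -4.91 and -4.93 in the HP1γ-/- pools and -5.38 and -4.90 in wild-type pools have no order, and no fold is given.

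**Figure D2:**
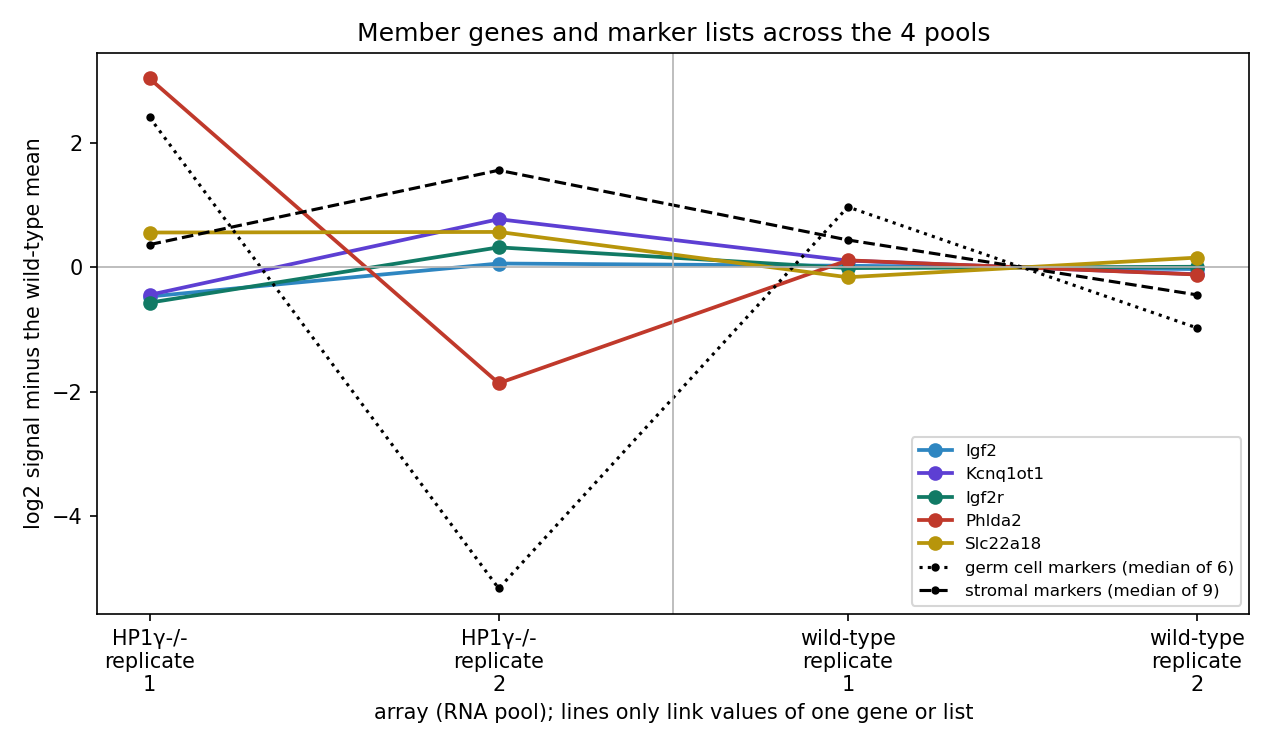
Level of each of the 5 tested imprinted genes (brightest probe) and the median level of 6 germ cell and 9 stromal markers on the 4 arrays, as log2 signal minus the mean of the wild-type pools; lines link the values of 1 gene or list. Igf2, Igf2r and Kcnq1ot1 are lower in HP1γ-/- replicate 1 than in HP1γ-/- replicate 2, Phlda2 and the germ cell markers are higher there, and Slc22a18 is level between the 2 pools.

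The stromal markers, another class of cells found around the gonad, were higher in HP1γ-/- replicate 2 for 8 of the 9 genes, the exception being Postn, and Igf2, Igf2r and Kcnq1ot1 were also higher there. This direction was not particular to stroma. Of the lists described below, it held for 14 of 16 imprint regulators, 13 of 16 IGF signalling genes and 10 of 13 other domain genes. Among markers it held for 7 of 9 endothelial, 3 of 8 leukocyte and 0 of 6 germ cell genes. Over all 22440 tested probes it held for 10196. The 5 tested of 7 erythroid genes were higher in HP1γ-/- replicate 2 too, for 5 of 5, with median levels of -1.85 and -0.57 in the HP1γ-/- pools, against -0.98 and -1.15 in wild type. Hba-a1, an alpha-globin gene, had -2.25 and -0.57, against -1.12 and -1.02. Its lowest and highest pools were those of Igf2, as in 13.5% of all probes. The part of stromal and erythroid cells in the levels of those 3 imprinted genes was not tested. Among 11041 other genes with a probe well above background on all 4 arrays, the profiles closest to Igf2 after centring on the mean over the 4 arrays were those of Prkar1a, a regulatory subunit of protein kinase A, at a root mean square distance of 0.008 log2 units, Heph at 0.014, and Mapt, Abca3 and Thra at 0.024 each. Prkar1a had levels of 0.39 and 0.92 in the HP1γ-/- pools, against 0.88 and 0.84 in wild type. Igf2r stood at place 881 with a distance of 0.14, so many genes lay closer to the brighter Igf2 probe than the receptor gene did. Only that Igf2 probe was used for these distances. Its gap between the HP1γ-/- pools was 0.53, against 1.57 by the other Igf2 probe, for which no distances were computed. For Phlda2, added after its values were seen, the closest profiles were those of Isl2 (0.15), Esrrb (0.32), Tcl1 (0.35), Alpl (0.43) and Cpsf4l (0.46). The 6 tested germ cell markers, by their brightest probes, were not candidates, as none was well above background in HP1γ-/- replicate 2. Their distance to Phlda2 was not computed. Esrrb and Tcl1 are known from pluripotent stem cells, and Alpl encodes the alkaline phosphatase long used to stain primordial germ cells. No such link is given here for Isl2, the closest, or for Cpsf4l, and why these 5 profiles lie close to Phlda2 was not tested. Alpl had 2.16 and -2.90 in the HP1γ-/- pools, against -0.25 and -1.69 in wild type, so it had the same 2 extreme pools as Phlda2. These distances describe 4 arrays and carry no test.

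Other genes of the 3 domains did not pass the threshold. Of 21 listed genes 13 were tested, 7 with a higher and 6 with a lower mean in the HP1γ-/- pools, and the median difference was 0.06. Genotypes did not overlap for 1 gene in the higher and 4 in the lower direction, against 15.1% and 23% of all probes. Tnnt3, a fast skeletal troponin gene beyond H19, had levels of -3.43 and -2.04 in the HP1γ-/- pools, against -3.90 and -3.98 in wild type, where 1 of the 2 arrays was well above background, so that it was tested through the HP1γ-/- pools alone (log2 difference 1.20, limma adjusted p = 0.70). Cd81, a tetraspanin gene of the Kcnq1 domain, had 5.87 and 5.95, against 6.24 and 6.35 (limma adjusted p = 0.75). The insulin gene Ins2 had -1.09 and -0.67, against -0.42 and -0.51, and the potassium channel gene Kcnq1, whose transcription unit Kcnq1ot1 crosses in antisense, had 0.19 and 0.25, against 0.46 and 0.68 (limma adjusted p = 0.79 for each). Ins2, Kcnq1 and Cd81 were lower in both HP1γ-/- pools than in both wild-type pools, without passing the test. The endothelial markers had lower means in HP1γ-/- pools for 9 of 9 genes, 8 of them without overlap, and their part in this was not tested. Cdkn1c, the maternally expressed cell cycle inhibitor gene of the Kcnq1 domain, is named after its values were seen and had 5.37 and 6.70, against 5.43 and 5.47. Like Kcnq1ot1, it was highest in HP1γ-/- replicate 2 and lowest in HP1γ-/- replicate 1 (limma adjusted p = 0.86).

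Genes of IGF signalling, 16 of 20 tested, were split between 8 higher and 8 lower means with a median difference of -0.045, and none passed the threshold. Genotypes did not overlap for 3 of them in the higher and 6 in the lower direction, against 15.1% and 23% of all probes. Igfbp7, which encodes a secreted IGF-binding protein, had levels of -0.64 ± 0.004 in HP1γ-/- pools and 0.19 ± 0.09 in wild-type pools (SD, n = 2 each), with limma adjusted p = 0.50. Irs1, the adaptor that carries the signal from the IGF1 and insulin receptors, had -0.63 ± 0.34 and -1.88 ± 0.59 (limma adjusted p = 0.59), a 2.38-fold difference without overlap. Igfbp1 had -1.38 ± 0.26 in HP1γ-/- pools and -1.94 ± 0.02 in wild-type pools (limma adjusted p = 0.69), and Igfbp4 had 2.49 ± 0.52 and 3.13 ± 0.14 (limma adjusted p = 0.75).

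Among imprint regulators, a list of Ctcf, methyltransferase, Polycomb, Tet and partner genes with the growth regulators Plagl1 and Hmga2, 16 of 18 were tested. Of these, 8 had higher and 8 lower means and the median difference was 0.02, with differences from -0.31 to 0.50 and none past the threshold. Trim28, the corepressor that holds imprints together with Zfp57, had levels of 3.70 ± 0.33 in HP1γ-/- pools and 3.20 ± 0.11 in wild-type pools (limma adjusted p = 0.75). The de novo methyltransferase gene Dnmt3a had 2.71 ± 0.27 and 2.31 ± 0.07, and its relative Dnmt3b had -0.16 ± 0.24 and 0.15 ± 0.01 (limma adjusted p = 0.79 and 0.84). Uhrf1, which brings the maintenance methyltransferase to replicated DNA, had 3.89 ± 0.01 and 4.10 ± 0.06 (limma adjusted p = 0.87). Over the 45 tested genes of these 3 lists, 2 (Tnnt3 and Irs1) differed at least 2-fold without overlap, a share near the 4.99% of all probes. Counts with 1 array left out are not set against that share, because a group of 1 array overlaps the other group less readily.

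**Figure D3:**
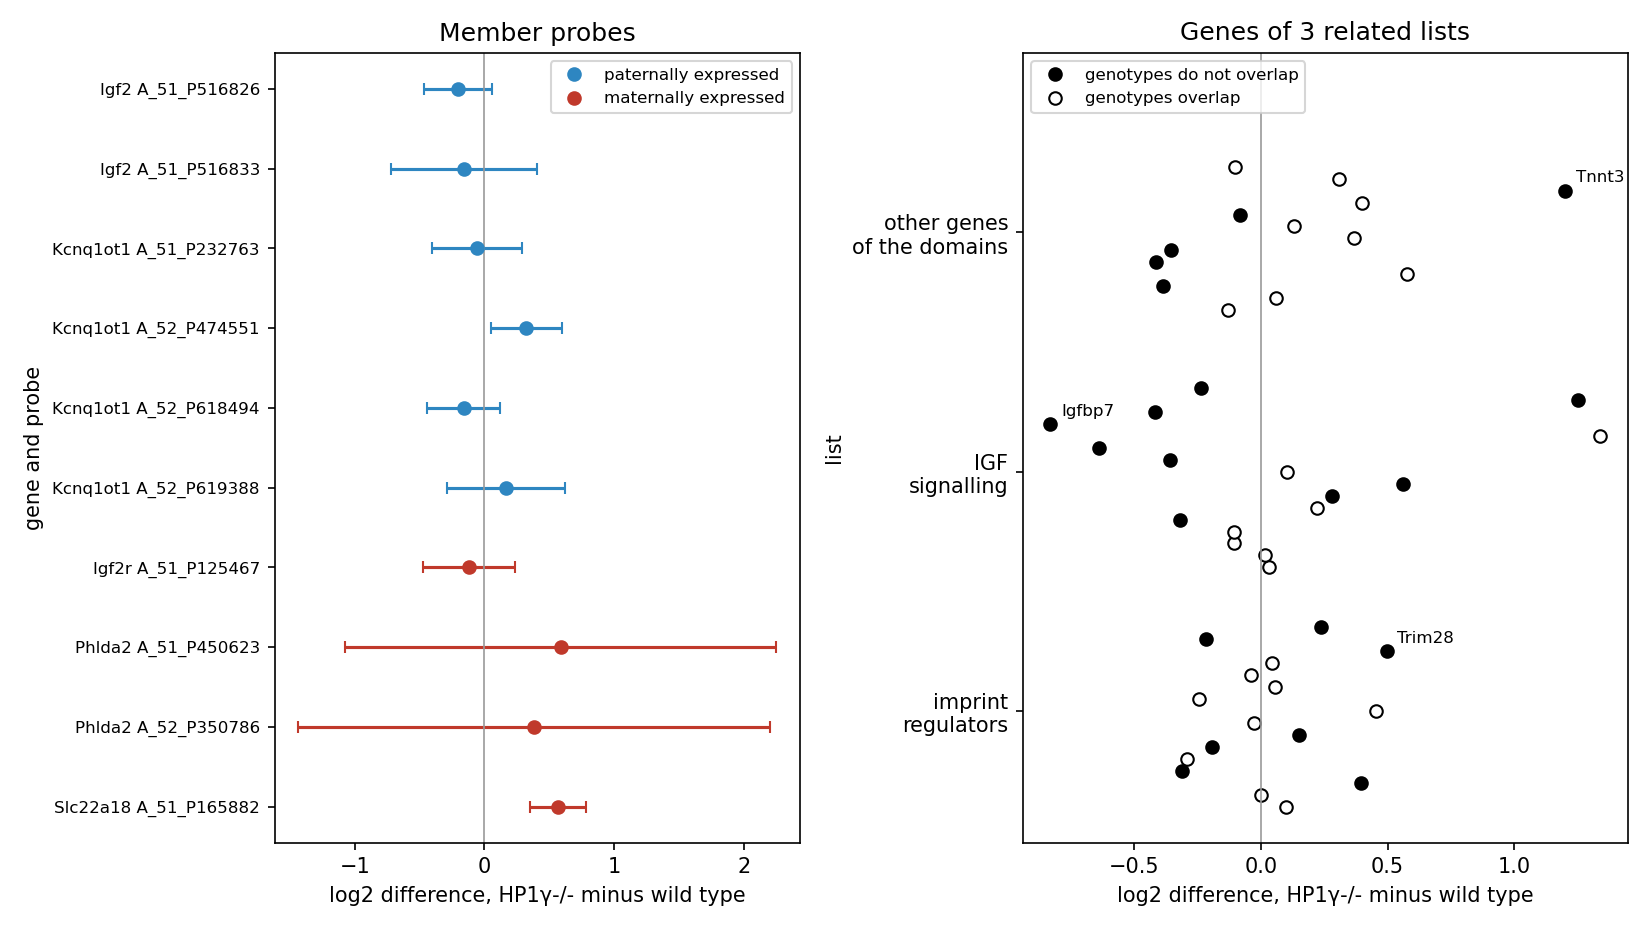
Log2 difference between HP1γ-/- and wild-type pools: left, each tested imprinted-gene probe with its standard error, coloured by the parental copy that is transcribed; right, the brightest probe of each tested gene in 3 related lists, filled where the genotypes do not overlap and with the gene of smallest p named. The error bars of Phlda2 are the widest of the left panel, and differences on the right run from -0.83 (Igfbp7) to 1.34 (Igfbp5).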

How the data were processed

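Cy3-labelled cRNA was made from 4 ng of each pool's RNA, per the labels' protocols. Intensity values come from Agilent Feature Extraction 10.7.3.1, per the file headers, as processed signal without scaling across arrays. Values in the authors' deposited table are intensity on a linear scale, not centred, and differ from the processed signal by at most 0.50%. The median of each column of that table was 14.5 and 33.4 for HP1γ-/- and 20.6 and 22.6 for wild type. Computed here were log2 signals minus each array's 75th percentile over 43379 non-control spots, averaged per probe without outlier spots, which left 21 of 41174 probes without a value on every array. Probes whose signal was well above background in both pools of a genotype were tested with limma 3.58.1 in R 4.3.3 (two-sided, no covariate, adjusted p threshold 0.05), after reading with Python 3.11.15 and pandas 2.3.3. In simulated data of 22440 probes for the same comparison the test recovered 0.2% of 2-fold and 78.6% of 16-fold changes. The simulation gave each probe 1 variance on all 4 arrays. In the data the SD between replicates was 0.59 for HP1γ-/- pools and 0.28 for wild-type pools, so these shares are a rough guide. Accessions were matched to RefSeq names of GRCm38.p6, naming 26888 probes. A gene is represented by its brightest tested probe. The array's grid names another build, so coordinates are given for the RefSeq windows alone. Replicates are separate embryo pools per the labels.

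The members and lists were chosen with earlier results of these data known. Named are the members with all probes, Cbx3, the 4 genes of smallest unadjusted p in each related list, and the 5 genes closest to Igf2; the same was planned for H19. Marker lists also covered gonadal soma, mesonephric epithelium and erythroid cells, of which 3, 4 and 5 genes of 8, 6 and 7 were tested, with median differences of 1.79, 2.50 and -0.03. The 1.79 is the value of Wnt4, which was tested through the HP1γ-/- pools alone, so it does not describe the gonadal soma list. Alternatives were quantile, median and spike-in scaling (7 control probes), normexp, 2 other filters on dim probes, a trend, the value table, the mean over probes, a replicate block and leaving out each array. For normexp the files' median spot signal was used in place of the mean signal, which they do not hold.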

Additional observations from a re-analysis of the deposited data

How the results depend on the processing

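None of the 5 tested imprinted genes passed the threshold under the alternatives that gave an adjusted p, the lowest being 0.073. The mean over a gene's probes gave values with no test, and the fits without 1 array called no probe at all, so they show nothing about stability. With 1 array left out, the difference ranged from -0.47 to 0.063 for Igf2, -0.57 to 0.32 for Igf2r, -0.44 to 0.78 for Kcnq1ot1, -1.86 to 3.04 for Phlda2 and 0.41 to 0.72 for Slc22a18. The signs turned without an HP1γ-/- array: without replicate 1 to 0.063 for Igf2, 0.32 for Igf2r and -1.86 for Phlda2, and without replicate 2 to -0.44 for Kcnq1ot1. Spike-in scaling, which moved the median of all probes from -0.06 to -0.61, turned Kcnq1ot1 to -0.38. Under the other alternatives, these aside, the 5 genes kept their sign. Over all probes, limma called 2, against 0 with no filter on dim probes (1474 at an unadjusted p under 0.05), 1 with the filter on all 4 arrays, 7 with a trend, 146 with spike-in scaling and 0 with any 1 array left out (607 to 5644 at an unadjusted p under 0.05). The imprinted genes at least 2-fold apart without overlap numbered 0 under every alternative that kept all 4 arrays. For the 3 related lists that count was 2, and 4 with no filter, 1 with the filter on all 4 arrays and 0 with normexp. With 1 array left out a group of 1 array overlaps the other less readily. No share over all probes was computed for that setting, so its counts are not given. The cause of these shifts was not tested. Replicate numbers did not pair the pools, the deviations of same-numbered pools correlating at 0.07 over probes. With a replicate block 13 probes were called, and the differences of the imprinted genes were the same, with adjusted p from 0.82 to 1.00. Signals near background limit Ascl2, 2 probes of Kcnq1ot1 and 1 each of Phlda2 and Slc22a18.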
